A study of Mus musculus with 2 samples.

Results

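The genes described here are 38 nuclear genes that serve the import of proteins into mitochondria, the fusion, fission and inner folding of the organelle, and the removal of damaged proteins or whole mitochondria. They were taken by symbol, and the reads of all transcripts of each gene were added up. All 38 were found among the 15523 genes with at least 1 read in this series. Brown adipose tissue from between the shoulder blades, a fat that makes heat, supplied native poly(A)+ RNA that was read on a nanopore, a method in which each read stands for 1 RNA molecule without amplification.

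The cold library was made from a pool of 3 male C57BL/6N mice, 20 weeks of age, that were housed singly at 4 °C for 24 h. The control library came from male C57BL/6N mice of the same age, with general housing at 22 to 24 °C. The labels name no altered gene in either group. How many control animals were pooled is not given in the sources used here, and for them the labels do not mention single housing. Groups follow the treatment label of each library, although the protocol text of both describes the cold exposure, and the RNA extraction text names a different depot of fat from the tissue label. The cold library held 1215617 reads and the control library 1698124.

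Each group has 1 library and so no replicate spread, and cold and control are therefore compared without a test or p-value. A ratio is the cold count over the control count after each was scaled by its library size and an edgeR trimmed-mean (TMM) factor. The range after a ratio is its 95% counting interval, which compares these libraries, not the conditions. In a whole tissue, fewer cells of a type and less RNA per cell cannot be told apart.

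Nearly all mitochondrial proteins are made in the cytosol and enter the organelle through the TOM channel of the outer membrane. From there, TIM complexes carry them into or across the inner membrane, and small chaperones guide hydrophobic carriers across the space between. Fusion and fission set the shape of the mitochondrial network, membrane-bound proteases remove misfolded or surplus subunits, and mitophagy delivers whole mitochondria to the lysosome. Brown adipocytes are packed with mitochondria, and in cold they burn fuel for heat through the uncoupling protein Ucp1.

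Alternative exons of 3 genes are shown here, because in each gene at least 1 transcript had a different share of reads between the libraries. Counted by exon, the interval of the difference in share excluded 0 only for the Tomm5 exon and the 33-base Dnm1l exon. The reads of an exon are those assigned to transcripts annotated with it, and no read was checked for its bases. An exon was counted with at least 20 reads in each library over transcripts that hold or skip it. No share over the exons of all genes was computed to set beside these exons. Capitals mark the exon and lower case the 12 bases of the spliced transcript on each side, 5′ to 3′. Coordinates are on GRCm38 and come from GENCODE M21. Dnm1l, which encodes the GTPase that pinches mitochondria apart, lies on the minus strand of chromosome 16. Its 39-base exon is at chr16:16342697-16342735, its 78-base exon at chr16:16318764-16318841 and its 33-base exon at chr16:16318445-16318477. Each is a whole number of codons long. The first adds residues to a loop of the GTPase domain, and the other 2 add residues to the variable domain. Tomm5, a small subunit of the TOM channel, has a 50-base exon at chr4:45106839-45106888 on the minus strand. Letmd1, an inner membrane protein with a LETM domain, has a 116-base exon at chr15:100471660-100471775 on the plus strand. The lengths of these last 2 are not a whole number of codons.
Dnm1l exon of 39 bases: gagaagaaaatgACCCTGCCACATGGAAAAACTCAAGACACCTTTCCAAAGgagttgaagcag
Dnm1l exon of 78 bases: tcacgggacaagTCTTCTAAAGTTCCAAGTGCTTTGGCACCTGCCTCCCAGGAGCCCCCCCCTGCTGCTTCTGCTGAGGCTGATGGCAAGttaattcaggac
Dnm1l exon of 33 bases: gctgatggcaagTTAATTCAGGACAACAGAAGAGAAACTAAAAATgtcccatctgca
Tomm5 exon of 50 bases: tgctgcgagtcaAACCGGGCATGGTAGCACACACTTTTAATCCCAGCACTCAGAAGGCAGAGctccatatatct
Letmd1 exon of 116 bases: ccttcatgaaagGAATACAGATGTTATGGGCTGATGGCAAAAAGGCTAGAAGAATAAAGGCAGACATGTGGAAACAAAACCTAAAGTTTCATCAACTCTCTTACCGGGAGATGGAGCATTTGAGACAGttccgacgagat

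After TMM scaling, the machinery as a whole stood at almost the same level in both libraries. The 38 genes together held 7698 reads, or 0.633% (0.619 to 0.648) of the cold library, and 9229 reads, or 0.543% (0.532 to 0.555) of the control library. The ranges of these unscaled shares do not overlap, and the cold share is the larger. With TMM scaling the summed ratio of the 38 genes was 1.03 (0.998 to 1.06), so the comparison depends on the scaling. The median log2 ratio over the 38 genes was 0.05, with 25 above 0 and 13 below, against a median of 0.00 over the 7515 genes with at least 20 reads summed over both libraries. All 38 reached those 20 reads.

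Single genes stayed close to a ratio of 1. The interquartile range of the 38 log2 ratios ran between -0.21 and 0.18, and the extremes were -0.55 for Pink1 and 0.48 for Letm1. Over all 7515 genes the interquartile range ran between -0.34 and 0.34. The counting interval lay wholly above 1 for 4 genes, Letm1, Tomm40, Timm17a and Phb, where 11.3% of the 7515 genes were called higher by that rule. It lay wholly below 1 for 6 genes, Pink1, Tomm7, Clpp, Bnip3, Timm13 and Phb2, and 11.3% of all genes were called lower. No gene of the 38 reached a 1.5-fold difference either way, a size that 8.05% of all genes reached upwards and 7.43% downwards with an interval excluding 1.

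Deeper counts give narrower intervals, so the same comparison was made at a matched number of reads. Between 100 and 1500 summed reads there were 2471 genes, of which 18.5% had an interval above 1 and 17.1% one below 1. The 35 of the 38 genes in this range counted 4 above (11.4%) and 6 below (17.1%). Ratios of 1.5-fold or more were found for 10.4% of the 2471 genes upwards and 8.62% downwards, against 0 of the 35 in each direction. The interquartile range of the 35 spanned -0.10 to 0.17 on the log2 scale, and that of the 2471 genes -0.26 to 0.30. The share above was under the background and the share below was equal to it.

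The scaling set the balance of these calls. With total counts as library sizes, 16 genes lay above 1 and 2 below, while 18.1% of the 7515 genes were called higher and 6.2% lower. Leaving mitochondrially encoded genes out of those totals gave 14 above and 2 below, beside 15.7% and 7.45% of all genes. Under DESeq2 size factors 4 lay above and 7 below, beside 10.3% and 12.5%. These scalings moved the median log2 ratio of all genes by 0.18, 0.13 and -0.03. Letm1, Tomm40, Timm17a and Phb were above 1, and Pink1 and Tomm7 below 1, under all 4 scalings. Clpp, Bnip3, Timm13 and Phb2 had intervals below 1 only under the TMM and DESeq2 scalings.

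**Figure D1:**
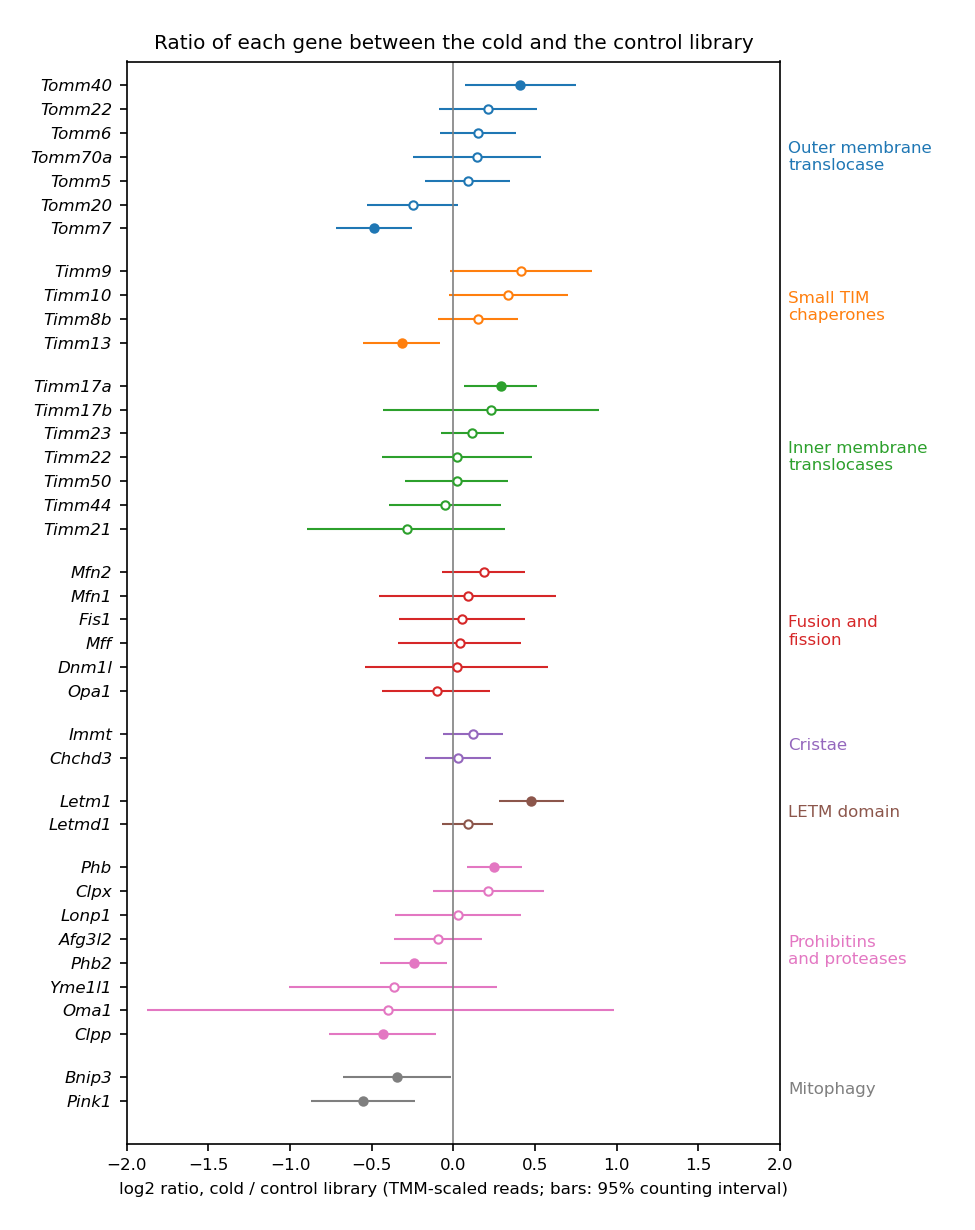
Log2 ratio of cold to control for each of the 38 genes, grouped by role. Points are TMM-scaled ratios, bars are 95% counting intervals, and filled points mark intervals that exclude a ratio of 1. Letm1 at 0.48 is the highest and Pink1 at -0.55 the lowest, and the open points sit on both sides of 0.

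By number of molecules, Letmd1 was the most abundant of the 38 genes in both libraries, at 488 RPM (reads per 1000000 reads of the TMM-scaled library) in the cold library and 459 in the control library. Phb followed at 441 and 370, and Immt at 355 and 327. Letm1 held rank 4 in the cold library (344 RPM) and rank 8 in the control library (247). Oma1 was the rarest, with 8 reads in the cold library and 13 in the control library. Since a native read is a whole molecule or its 3′ part, these levels are not divided by length. Per kilobase of transcript the order changed, with the short Timm8b first at 389 RPM per kb in the cold library and 351 in the control library, then Timm23 at 279 and 257. Letmd1 took rank 6 in the cold library and rank 9 in the control library on that scale, at 203 and 191.

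**Figure D2:**
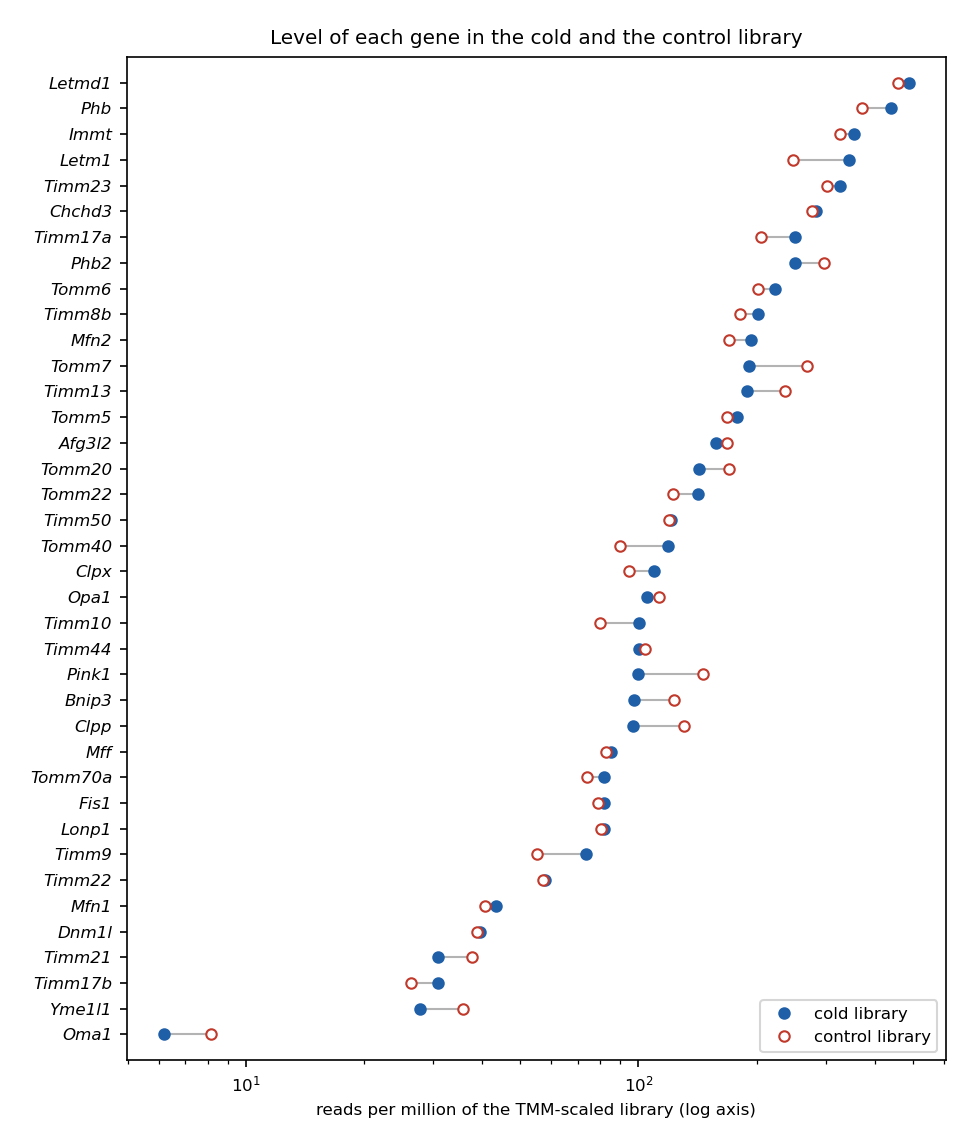
Level of each of the 38 genes in RPM of the TMM-scaled library, on a log axis, with the genes ordered by their level in the cold library. Filled points are the cold library and open points the control library. Levels span Letmd1 at 488 RPM down to Oma1 at 6.18 in the cold library, and the pairs of points lie close together.

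In the TOM complex of the outer membrane, the channel gene and a small subunit went in opposite directions. Tomm40, the pore through which precursors pass, had 154 reads in the cold library and 143 in the control library, a ratio of 1.33 (1.05 to 1.68). Tomm7, a small subunit that in human cells also holds PINK1 at the outer membrane, had 248 reads in the cold library and 428 in the control library. It was 1.40-fold lower in the cold library (1.19 to 1.64). The receptors that recognise incoming precursors had intervals that included 1. Tomm20 counted 185 reads in the cold library and 271 in the control library, at a ratio of 0.842 (0.694 to 1.02), and under DESeq2 size factors its interval lay below 1. Tomm22 counted 183 and 195 reads, at 1.16 (0.941 to 1.42). Tomm70a, the receptor for carrier proteins, counted 106 and 118 reads, at 1.11 (0.844 to 1.45). The other small subunits, Tomm5 with 231 and 268 reads and Tomm6 with 289 and 321, stood at 1.06 (0.888 to 1.27) and 1.11 (0.944 to 1.31). The 7 genes summed to a ratio of 0.987 (0.919 to 1.06). On GRCm38, Tomm40 lies at 19701313 to 19715438 on chromosome 7 and Tomm7 at 23838944 to 23844161 on chromosome 5.

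The small TIM chaperones work as mixed rings in the intermembrane space, Timm9 with Timm10 and, in yeast and mammals, the Timm8 and Timm13 proteins with each other. Timm13 had 245 reads in the cold library and 376 in the control library and was 1.24-fold lower in the cold library (1.06 to 1.47). Its partner Timm8b had 261 and 290 reads, a ratio of 1.11 (0.935 to 1.32). Timm9 stood at 1.33 (0.986 to 1.80) on 95 cold and 88 control reads, and Timm10 at 1.26 (0.981 to 1.62) on 130 and 127. The intervals of these 3 included 1, and their point ratios were above it. The 4 genes together had a ratio of 1.02 (0.926 to 1.13).

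Among the inner membrane translocases, Timm17a, a core subunit of the TIM23 complex that takes in proteins with a presequence, had 325 reads in the cold library and 328 in the control library. Its ratio was 1.22 (1.04 to 1.43). Timm17b, its paralogue, counted 40 and 42 reads and stood at 1.17 (0.742 to 1.86), a range too wide to separate it from Timm17a. Timm23, the other core subunit, counted 423 and 481 reads at 1.08 (0.949 to 1.24). Timm50, the receptor of that complex, was at 1.01 (0.815 to 1.26), and Timm44, which tethers the import motor, at 0.966 (0.762 to 1.22). Timm21, which links TIM23 to the TOM complex and the respiratory chain, had 40 and 60 reads at 0.822 (0.537 to 1.25). Timm22, the channel of the separate carrier translocase, had 75 and 91 reads at 1.02 (0.739 to 1.40). The 7 genes summed to 1.08 (0.998 to 1.17), and 1 of them, Timm17a, had an interval that excluded 1.

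The 8 genes of fusion, fission and cristae lay between -0.10 and 0.19 on the log2 scale, and none had an interval that excluded 1. Mfn2, an outer membrane GTPase of fusion that also tethers mitochondria to other membranes, had 251 reads in the cold library and 272 in the control library, at 1.14 (0.955 to 1.36). Its relative Mfn1 counted 56 and 65 reads at 1.06 (0.730 to 1.54). Opa1, the GTPase of inner membrane fusion, counted 136 and 180 reads at 0.932 (0.740 to 1.17). Of the fission genes, Dnm1l stood at 1.01 (0.686 to 1.49) on 51 and 62 reads. Mff, its receptor on the outer membrane, stood at 1.03 (0.791 to 1.33) on 110 and 132 reads. Fis1, a further outer membrane protein of fission, was at 1.04 (0.794 to 1.35) on 106 and 126. Immt and Chchd3 are subunits of the MICOS complex, which holds cristae at their necks. Immt counted 459 and 521 reads at 1.09 (0.956 to 1.23), and Chchd3 366 and 442 at 1.02 (0.887 to 1.18). The 6 fusion and fission genes summed to 1.05 (0.945 to 1.16), and the 2 MICOS genes to 1.06 (0.961 to 1.16).

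Letm1, an inner membrane protein of potassium and calcium exchange, had the highest ratio of the 38 genes. It held 445 reads in the cold library and 394 in the control library, for 1.39 (1.21 to 1.60). Letmd1, which in mice is needed for heat production by brown fat, held 631 and 732 reads, at 1.06 (0.954 to 1.18). Letm1 lies at 33739673 to 33782817 on chromosome 5 and Letmd1 at 100469023 to 100479164 on chromosome 15.

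Prohibitins form rings in the inner membrane that shield new subunits and bind its proteases, and their 2 genes parted. Phb had 570 reads in the cold library and 591 in the control library, a ratio of 1.19 (1.06 to 1.34). Phb2 had 324 and 473 reads and was 1.18-fold lower in the cold library (1.03 to 1.37). Of the proteases, the peptidase of the matrix, Clpp, had 125 reads in the cold library and 208 in the control library. It was 1.35-fold lower in the cold library (1.08 to 1.70). Clpx, the unfoldase that feeds Clpp, counted 142 and 151 reads at 1.16 (0.916 to 1.47). Lonp1, the matrix protease that also degrades the DNA-binding protein Tfam, counted 106 and 128 reads at 1.02 (0.782 to 1.33). The membrane protease gene Afg3l2 had 204 and 268 reads at 0.939 (0.779 to 1.13). Yme1l1 and Oma1, which both cut Opa1, had 36 and 57 reads and 8 and 13 reads. Their ratios were 0.779 (0.498 to 1.20) and 0.759 (0.273 to 1.98), ranges too wide to show a difference of that size at this depth. The 6 protease genes summed to 0.928 (0.835 to 1.03). Phb lies at 95666957 to 95680773 on chromosome 11, Phb2 at 124712336 to 124716950 on chromosome 6 and Clpp at 56990305 to 56996188 on chromosome 17.

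Both mitophagy genes of the set were lower in the cold library. Pink1, a kinase that gathers on damaged mitochondria and marks them for removal, had 129 reads in the cold library and 233 in the control library and was 1.46-fold lower in the cold library (1.18 to 1.83). Bnip3, an outer membrane receptor that binds the autophagy machinery directly, had 126 and 197 reads and was 1.27-fold lower (1.01 to 1.60). Together they held 255 reads in the cold library and 430 in the control library, for a summed ratio of 0.731 (0.624 to 0.856). This rests on 2 genes. The list of other mitophagy genes also holds genes of autophagy at large, such as Calcoco1 and the autophagosome gene Gabarapl1. It is therefore not a like comparison for Pink1 and Bnip3. Its 23 genes with at least 20 reads had a median log2 ratio of 0.07. Of these 23 genes, 3 had intervals above 1 and 4 below, where 11.3% of all genes were called in each direction. That list summed to a ratio of 1.00, with an interval that included 1. With total counts the interval of Pink1 still lay below 1, and that of Bnip3 included 1. Pink1 lies at 138313409 to 138326307 on chromosome 4 and Bnip3 at 138890836 to 138909519 on chromosome 7.

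The promoter windows of these 2 genes are shown because both carry a match to the motif of NRF1, a transcription factor known for nuclear genes of mitochondria. The letters searched were GCGCA, any base, then GCGC, on both strands, within 250 bases before and 50 after the start of each gene, in RefSeq sequence of GRCm38.p6. A match is a description of the letters and says nothing about binding in this tissue. The 250 bases before the start are printed, 5′ to 3′ on the strand of the gene, with the match in capitals. The window of Bnip3 is chr7:138909507-138909756 and that of Pink1 chr4:138326297-138326546, both on the minus strand.
Bnip3 promoter: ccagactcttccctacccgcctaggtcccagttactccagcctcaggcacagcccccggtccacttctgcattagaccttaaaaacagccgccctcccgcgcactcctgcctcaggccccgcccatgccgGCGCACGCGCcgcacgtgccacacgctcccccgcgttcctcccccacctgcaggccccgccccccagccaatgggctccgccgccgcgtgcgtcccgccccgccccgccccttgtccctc
Pink1 promoter: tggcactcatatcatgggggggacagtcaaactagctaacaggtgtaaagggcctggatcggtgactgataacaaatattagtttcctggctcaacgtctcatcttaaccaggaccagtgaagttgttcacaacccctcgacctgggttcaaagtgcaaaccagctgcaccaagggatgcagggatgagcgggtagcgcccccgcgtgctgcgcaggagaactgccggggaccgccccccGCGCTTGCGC

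Of the 38 genes, 35 were in the promoter table (Tomm7, Timm21 and Afg3l2 were not), and 8 of the 35 held the NRF1 letters, 22.9%. Across all 27025 genes of the table the share was 5.19%, and among the 5926 of them with at least 20 reads here it was 13.5%. The other 6 were Tomm20, Timm8b, Opa1, Immt, Phb and Oma1, whose ratios ran between 0.759 for Oma1 and 1.19 for Phb, so genes with the letters lay on both sides of 1. The ETS letters CCGGAAGT were in 6 of the 35 (17.1%), against 4.31% of all genes and 11.2% of those with at least 20 reads. The ERR letters TCAAGGTCA were in 1, Timm8b (2.86%), against 0.466% and 0.321%.

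Genes whose products bind each other, or are paralogues, were set side by side as shares of their joint reads, which do not depend on the scaling of the libraries. These pairs were chosen after their ratios were seen. For 4 of 9 pairs the interval of the difference in share excluded 0. No share over other pairs of genes was computed to set beside this count. Each of the 4 pairs holds a gene whose own ratio had an interval that excluded 1, so the count largely restates those calls. Timm8b took 51.6% of the reads of Timm8b and Timm13 in the cold library and 43.5% in the control library, a difference of 8.04 percentage points (2.27 to 13.7). Phb took 63.8% of the prohibitin reads in the cold library and 55.5% in the control library, a difference of 8.21 points (3.85 to 12.5). Clpx took 53.2% of the reads of Clpx and Clpp in the cold library and 42.1% in the control library, a difference of 11.1 points (3.22 to 18.9). In the cold library there were thus 1.14 Clpx reads per Clpp read, against 0.726 in the control library. Letmd1 took 58.6% of the reads of Letmd1 and Letm1 in the cold library and 65.0% in the control library, a difference of -6.37 points (-10.4 to -2.31).

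The other 5 pairs had intervals that included 0. Timm9 made up 42.2% of its pair with Timm10 in the cold library and 40.9% in the control library. Timm17a made up 89.0% and 88.6% of the Timm17 reads, with an interval of the difference between -4.21 and 4.99 points. Mfn2 made up 81.8% and 80.7% of the mitofusin reads, with an interval between -5.04 and 7.05 points.

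**Figure D3:**
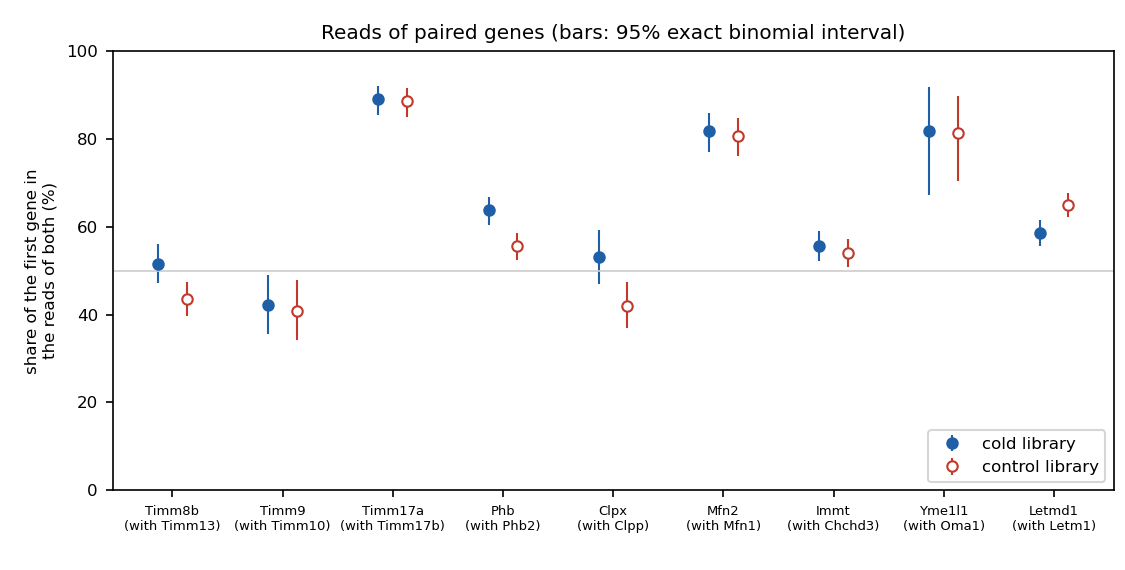
Share of the first-named gene in the joint reads of each of 9 pairs, in percent, with 95% exact binomial intervals. Filled points are the cold library and open points the control library. Timm8b, Phb and Clpx have larger shares in the cold library and Letmd1 a smaller share, while the Timm17, mitofusin and other pairs nearly coincide.

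The 38 genes were listed with 117 transcripts, of which 76 are annotated as protein-coding. Transcripts of other types, such as retained introns, held 6.52% of the reads of these genes in the cold library (5.98 to 7.10) and 7.16% in the control library (6.64 to 7.71), and these ranges overlap. Shares of transcripts could be compared for 26 genes, those with several transcripts and at least 50 reads in each library. In 5 of them, 19.2%, at least 1 transcript had a different share by its interval, where 15.3% of all 1839 such genes did. Over transcripts it was 8 of 99, or 8.08%, against 5.97% of all 7309. The 5 genes were Dnm1l, Tomm40, Tomm5, Pink1 and Letmd1.

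For Dnm1l the total level was alike, but the reads were spread differently over its forms. Dnm1l-201, which lacks all 3 exons shown above, held 23 of 51 reads in the cold library, 45.1%, and 15 of 62 in the control library, 24.2%. The difference was 20.9 points (3.36 to 37.1). Dnm1l-203, which has the 78-base and the 33-base exon, held 25.5% in the cold library and 37.1% in the control library, a difference of -11.6 points (-27.5 to 5.67). Counted by exon over the 4 protein-coding forms, those annotated with the 33-base exon held 14 of 47 reads in the cold library, 29.8%. They held 28 of 57 in the control library, 49.1%. That difference was -19.3 points (-36.2 to -0.42). Forms with the 78-base exon held 27.7% and 40.4% of the reads, and those with the 39-base exon 21.3% and 24.6%. Both intervals of the difference included 0. All of these shares rest on under 70 reads per library.

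For Tomm5, the form with the 50-base exon, Tomm5-202, was the smaller in the cold library. It held 97 of 231 reads there, 42.0%, and 144 of 268 reads in the control library, 53.7%, a difference of -11.7 points (-20.3 to -2.95). Tomm5-204, which goes without it, held 52.8% and 43.7%, a difference of 9.16 points (0.371 to 17.8). The coding part of Tomm5-204 is 153 bases and that of Tomm5-202 is 183 bases, stop codon not counted. Within the exon shown above, the 15-base run TTTAATCCCAGCACT occurs in transcripts of 517 of the 15523 genes, 3.33%, Tomm5 included. Of all 15-base runs of the exon, this one was picked because it is found in the most genes. Such letters are known from B1, a repeat scattered through the mouse genome, for which no annotation was used here.

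For Tomm40, whose total was higher in the cold library, Tomm40-202 held 113 reads in the cold library, 73.4%, and 83 in the control library, 58.0%. The difference was 15.3 points (4.54 to 25.7). Tomm40-201 held 41 and 59 reads, or 26.6% and 41.3%, a difference of -14.6 points (-25.0 to -3.87). Both have the same 1083 coding bases. Upstream of them a 98-base intron, at 19715260 to 19715357 on chromosome 7, is spliced out of Tomm40-202, whose annotated ends also reach 13 bases further at the 5′ end and 16 bases further at the 3′ end. Reads on a nanopore start at the 3′ end and can stop short, so the assignment at the 5′ end depends on reads that reach it. The same limit applies to the 39-base Dnm1l exon and the 116-base Letmd1 exon, which are exon 3 of Dnm1l-202 and Letmd1-201.

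For Pink1, the lower total was uneven over the forms. The most abundant form, Pink1-201, counted 103 reads in the cold library and 171 in the control library, 79.8% and 73.4% of the total. Pink1-202, with 504 coding bases against the 1740 of Pink1-201, counted 22 reads in the cold library, 17.1%, and 62 in the control library, 26.6%, a difference of -9.56 points (-17.7 to -0.46). Pink1-203 had 4 reads in the cold library and 0 in the control library, where a count of 0 allows up to 3 reads. Pink1-202 is annotated with 1465 bases and Pink1-201 with 2375. The part of reads that stop short in these shares was not tested.

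For Letmd1, the form annotated for nonsense-mediated decay, Letmd1-202, held 61 reads in the cold library, 9.67%, and 96 in the control library, 13.1%. The difference was -3.45 points (-6.80 to -0.04), which only just excluded 0. The main coding form, Letmd1-201, held 61.8% and 57.1%. Letmd1-201 has the 116-base exon shown above and Letmd1-202 lacks it. Of the reads assigned to forms that hold or skip this exon, forms that hold it had 74.7% in the cold library. In the control library they had 70.1%, a difference of 4.55 points (-0.70 to 9.73). Alternative exons of Mff, Immt, Opa1, Mfn2 and Clpx had differences whose intervals included 0.

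**Figure D4:**
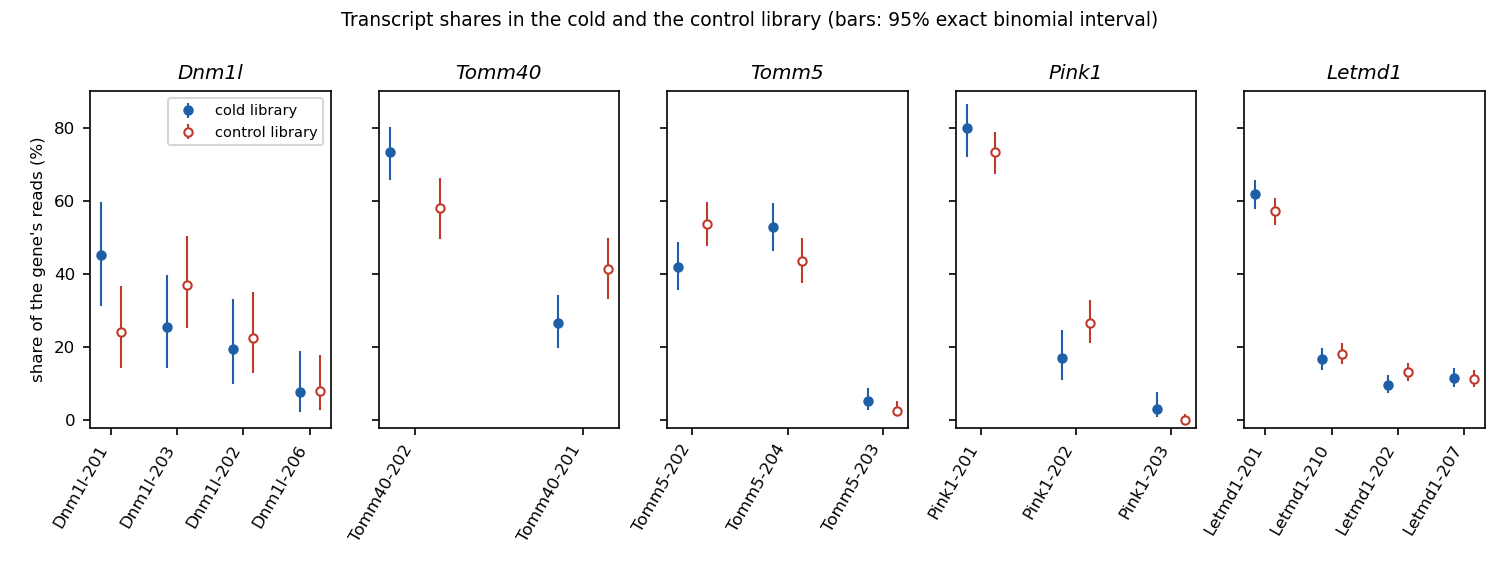
Share of each listed transcript in the reads of its gene, in percent, with 95% exact binomial intervals, for Dnm1l, Tomm40, Tomm5, Pink1 and Letmd1 (the most abundant forms). Filled points are the cold library and open points the control library. Dnm1l-201 and Tomm40-202 have larger shares in the cold library, and Tomm5-202 and Pink1-202 smaller ones.

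A further 93 genes of the same pathways were listed for comparison, and 87 of them had at least 20 reads. Their median log2 ratio was 0.07, with 15 intervals above 1 (17.2%) and 9 below (10.3%), where 11.3% of all genes were called in each direction. Past 1.5-fold there were 4 higher genes (4.60%) and 5 lower ones (5.75%), beside 8.05% and 7.43% of all genes. The largest difference was that of Immp2l, a subunit of the inner membrane peptidase, with 22 reads in the cold library and 99 in the control library, 3.65-fold lower in the cold library (2.28 to 6.09). Calcoco1, an autophagy adaptor of the endoplasmic reticulum, had 11 and 41 reads, 3.02-fold lower (1.53 to 6.52). Mipep, the matrix peptidase that trims imported proteins, was 1.80-fold lower (1.13 to 2.95). Afg3l1, the paralogue of Afg3l2 in mice, had 30 and 66 reads and was 1.78-fold lower (1.14 to 2.85).

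Other genes of this list had ratios above 1. Gabarapl1, an autophagosome protein of the Atg8 family, had 159 reads in the cold library and 116 in the control library, at 1.69 (1.32 to 2.17). Prelid3b, a lipid carrier of the intermembrane space, had 409 and 313 reads at 1.61 (1.39 to 1.87). Mtx3, an outer membrane protein related to metaxins, was at 1.82 (1.01 to 3.33) on 31 and 21 reads, and Timmdc1, an assembly factor of complex I, at 1.59 (0.997 to 2.54). The most abundant genes of the list were Chchd10, with 3544 and 3961 reads at 1.10 (1.05 to 1.15), and Chchd2, with 2689 and 2481 reads at 1.34 (1.27 to 1.41). Ghitm, an inner membrane protein, stood at 1.11 (1.02 to 1.21) and Hspa9, the Hsp70 of the import motor, at 1.22 (1.11 to 1.33).

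The Atg8 family, named here after its values were seen, was split. Map1lc3a had 310 reads in the cold library and 495 in the control library, and Map1lc3b had 194 and 309. Both were 1.29-fold lower in the cold library, with intervals that excluded 1. Gabarap had 466 and 448 reads at 1.28 (1.12 to 1.46), so its interval lay above 1, as did that of Gabarapl1. Bnip3l, the paralogue of Bnip3, had 74 and 117 reads at 0.780 (0.575 to 1.05).

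**Figure D5:**
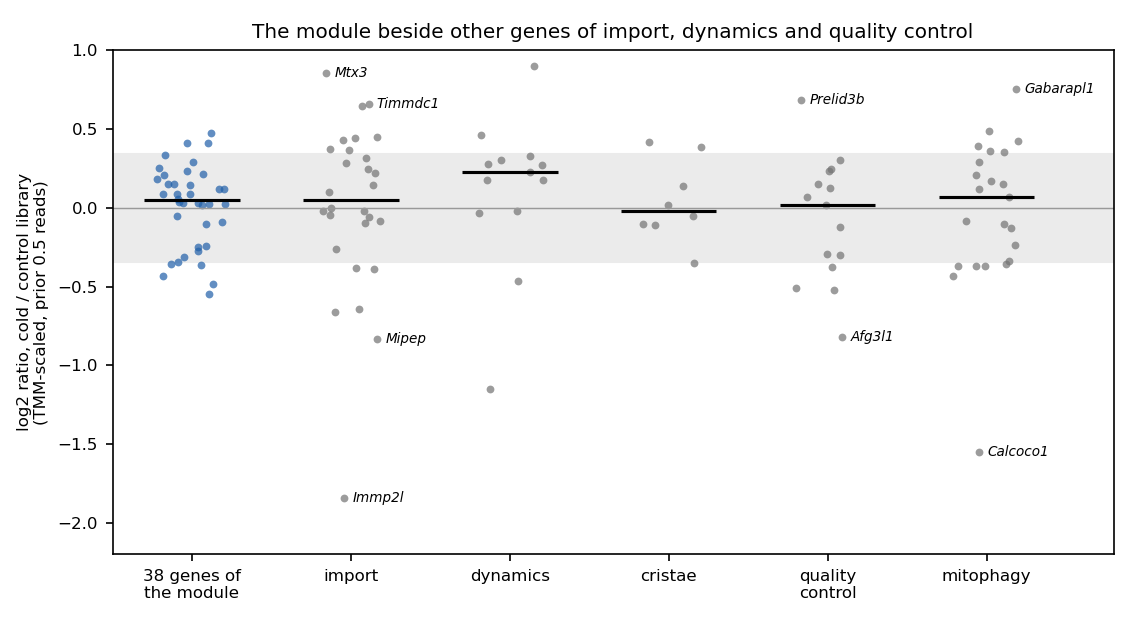
Log2 ratio of cold to control, on TMM-scaled reads with a prior of 0.5 reads, for the 38 genes and for other genes of import, dynamics, cristae, quality control and mitophagy with at least 20 reads. Bars are medians and the grey band is the interquartile range of all 7515 genes. The 38 genes stay between -0.55 and 0.48, while Immp2l and Calcoco1 of the other lists lie far below.

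The summed ratio of the 38 genes was 1.03 (0.998 to 1.06), and that of the other pathway genes was 1.10 (1.07 to 1.12). In the latter sum, Chchd10 and Chchd2 held 3544 and 2689 of 19734 cold reads. They held 3961 and 2481 of its 22221 control reads. By median log2 ratio the 38 genes and the other pathway genes were close, at 0.05 and 0.07. Lower sums were found for 2 further groups of nuclear mitochondrial genes. The 78 mitochondrial ribosomal protein genes had a median log2 ratio of -0.09 and a summed ratio of 0.942 (0.916 to 0.968). The 37 complex I subunit genes had a median of -0.20 and a summed ratio of 0.863 (0.849 to 0.877). Median ratios also differed by transcript length. Over all genes the median log2 ratio was -0.13 for transcripts under 1000 bases and 0.06 between 3000 and 4000 bases, while the 6 of the 38 genes under 1000 bases had a median of 0.12. The part of length in these ratios was not tested.

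Markers of cell types were read in both libraries. All 10 brown adipocyte markers were detected in each, and they summed to a ratio of 1.28 (1.25 to 1.30), with 6 intervals above 1 and 0 below. Ucp1 had 14526 of their 21081 reads in the cold library and 14860 of 20381 in the control library, at 1.21 (1.18 to 1.23). Elovl3, a fatty acid elongase, had 731 and 180 reads, at 5.01 (4.25 to 5.93). Cox7a1 stood at 1.01 (0.932 to 1.09). Prdm16, with 20 and 34 reads, and Zic1, with 14 and 18, had log2 ratios under 0, and both intervals included a ratio of 1. Of 7 white adipocyte markers, Hoxc9 was at 0 reads in both libraries, and the 7 together held 415 reads in the cold library and 199 in the control library, a ratio of 2.57 (2.17 to 3.06). Npr3 held the most of these, 260 and 86 reads, then Retn with 118 and 70, and Nnat had 22 and 1. All 3 had intervals above 1. Lep, the gene of leptin, went the other way with 5 and 36 reads, at 0.171 (0.0525 to 0.438). All 19 skeletal muscle genes with at least 20 reads had intervals above 1, and the 20 genes together held 2779 reads in the cold library and 843 in the control library, a ratio of 4.07 (3.76 to 4.40). Muscle fibres use the same machinery, and their part in their ratios was not tested. The 10 endothelial markers summed to 1.26 (1.14 to 1.39) but were split. Of them, 3 had intervals above 1 and 0 below, and 4, Emcn, Tek, Tie1 and Flt1, had log2 ratios under 0. Macrophage markers summed to 1.39 (1.09 to 1.79), with Adgre1 at 0 in the cold library. Only 4 of the 10 macrophage markers had at least 20 reads, with 2 intervals above 1, 0 below and 1 log2 ratio under 0.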

How the data were processed

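Poly(A)+ RNA (500 ng) was read directly on a nanopore with the SQK-RNA002 kit, per the labels' protocols, in 1 cold and 1 control library. The deposited files hold the authors' whole-number read counts per transcript, not normalized, and transcripts at 0 are not listed. Per the submitters' processing notes, minimap2 and GRCm38 were used. Neither the aligner version nor the treatment of reads that match several transcripts is given in the sources used here.

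Transcripts were matched by identifier to GENCODE M21 and reads were summed to genes. The 79 cold and 75 control transcripts without a gene (0.0652% and 0.0571% of reads) were left out. Reads were scaled by TMM (edgeR 4.0.16, R 4.3.3; factors 1.06 and 0.940). A prior of 0.5 reads was added before log2 ratios were taken. Intervals of ratios and single shares are exact Clopper-Pearson, and those of differences in share are Newcombe intervals. They cover counting error only. The calculation was tested on simulated data (Python 3.11.15, scipy 1.17.1). Alternatives were total counts, total counts without mitochondrially encoded genes, DESeq2 1.42.0 size factors, other read minimums and priors, the most abundant or protein-coding transcripts, and near-identical copies added. A test across replicates, as for counts, needs more than 1 library per group and was not run.

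All 38 genes are named. Of the other pathway genes, the 4 highest and 4 lowest ratios with at least 50 reads, and the 4 with the most reads, are named, and the 6 largest differences in transcript share. Other genes and transcripts were named after their values were seen. The genes and lists were chosen with earlier results of these data known.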

Additional observations from a re-analysis of the deposited data

How the results depend on the processing

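No paired analysis was possible because each group has 1 library. For the same reason no replicate could be left out. With total counts, 16 of the 38 genes had an interval above 1 and 2 below, 3 (Letm1, Timm9 and Tomm40) were at least 1.5-fold higher, and the summed log2 ratio was 0.22. Without mitochondrially encoded genes in the totals these were 14, 2, 1 and 0.17. Both scalings shift all genes upwards, by a median log2 ratio of 0.18 and 0.13. Of all genes, 18.1% then lay above 1, 6.2% below and 13.3% at least 1.5-fold higher with total counts, and 15.7%, 7.45% and 11.4% without mitochondrially encoded genes. With the most abundant transcript alone, 1 gene was at least 1.5-fold higher, Tomm40 at 1.68 (1.25 to 2.26), beside 8.31% of all genes. Dnm1l stood there at a log2 ratio of 0.90 on 23 cold and 15 control reads and Tomm5 at -0.27, and both intervals included a ratio of 1. With protein-coding transcripts alone, 3 of 17 genes had a different transcript share (17.6%, and 12.7% of all genes), where 5 did with all transcripts. The other 51 values of the main counts, medians and sums moved by less than 1.5 times or less than their counting interval, and none changed sign among called values. Of 341 ratios of single genes under the alternatives, 337 stayed within their interval. The search for copies found Phb alone, with a Gm7666 transcript that shares 96.1% of its 31-base words and a Fyb transcript that shares 57.3%, each with 1 read in the cold library. Depth limits the genes with the fewest reads, such as Oma1, Timm17b, Yme1l1 and Timm21.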
